A study of Homo sapiens with 4 samples.

Results

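Described here are 10 transcription factor genes of the T-cell lineage, TCF7, LEF1, BCL11B, SATB1, IKZF1, IKZF2, IKZF3, TOX, TOX2 and ID3, out of 64252 genes in the count table. They were chosen by name, as the TCF/LEF, BCL11B, SATB1, Ikaros, TOX and ID factors of T cells, and each matched 1 Ensembl gene ID. RNA came from J.gamma1 cells, a mutant subline of Jurkat, a line from a human T-cell leukaemia (T-ALL), known for its lack of the phospholipase PLCG1. One group was cultured for 48 h with 10 µM FB23-2, an inhibitor of the RNA demethylase FTO. The Control group was cultured for the same time with the DMSO vehicle at under 0.1%. Each group held 2 independent biological replicates of this 1 line.

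These factors switch on and hold the T-cell programme in the thymus. TCF-1, the product of TCF7, and LEF-1 bind DNA through an HMG box and carry beta-catenin or Groucho (TLE) co-repressors to their targets. BCL11B, a zinc finger protein, commits progenitors to the T lineage, and is mutated or rearranged in some T-ALL. The Ikaros proteins, encoded by IKZF1 (Ikaros), IKZF2 (Helios) and IKZF3 (Aiolos), are zinc finger proteins that pair with each other and recruit the NuRD complex. SATB1 organises thymocyte chromatin, TOX and TOX2 are HMG-box proteins of thymic selection and of chronically stimulated T cells, and ID3 blocks DNA binding by E proteins.

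Promoter sequence from RefSeq is shown for the 3 factors whose RNA changed most in their direction. Each covers the 250 bases before an annotated transcript start in GRCh38.p14, read along the gene's strand, with matches to the searched motifs in capitals. TCF7 and BCL11B fell most and TOX2 rose most. The TCF7 stretch is chr5:134123368-134123617 on the plus strand, the BCL11B stretch chr14:99272198-99272447 on the minus strand, and the TOX2 stretch chr20:43915880-43916129 on the plus strand.
TCF7: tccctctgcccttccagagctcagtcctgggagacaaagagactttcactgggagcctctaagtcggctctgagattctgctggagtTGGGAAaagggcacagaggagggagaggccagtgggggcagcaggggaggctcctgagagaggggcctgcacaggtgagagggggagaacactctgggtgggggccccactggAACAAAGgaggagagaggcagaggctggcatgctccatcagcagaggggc
BCL11B: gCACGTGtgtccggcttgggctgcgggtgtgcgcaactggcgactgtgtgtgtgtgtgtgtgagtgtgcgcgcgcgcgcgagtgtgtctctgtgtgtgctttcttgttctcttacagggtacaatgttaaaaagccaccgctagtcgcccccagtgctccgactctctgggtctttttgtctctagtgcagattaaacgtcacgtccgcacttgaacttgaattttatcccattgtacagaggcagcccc
TOX2: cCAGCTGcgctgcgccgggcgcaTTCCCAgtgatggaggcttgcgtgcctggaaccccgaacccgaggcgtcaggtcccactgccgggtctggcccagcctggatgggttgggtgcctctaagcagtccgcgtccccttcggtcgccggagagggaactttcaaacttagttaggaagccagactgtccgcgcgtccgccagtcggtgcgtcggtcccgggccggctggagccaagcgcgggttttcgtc

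The motifs searched, on both strands of the whole windows of 250 bases before and 50 after the start, were CACGTG (an E-box that MYC can bind), CAGCTG (an E-box that E proteins can bind), CTTTGAA and CTTTGTT (TCF/LEF), and TGGGAA (Ikaros). The shares of all 35116 promoter windows with a match were 7.26%, 17.9%, 4.43%, 5.20% and 24.0% in that order. RefSeq gave 16 windows for 8 of the factors, and IKZF3 and TOX promoters were not analysed here. The TCF7 window held CTTTGTT on the opposite strand, starting 50 bases before the transcript start, and TGGGAA starting 163 bases before it. This was the downstream 1 of the 2 TCF7 windows, before the start at 134123618. The other, before the start at 134115613, held no match. Both lie inside the annotated gene, and which start these cells use was not tested. BCL11B held CACGTG at its upstream end, starting 249 bases before the transcript start. TOX2 held CAGCTG starting 249 bases before its start, and TGGGAA on the opposite strand starting 227 bases before it, and its other window held no match. In the ID3 window, whose 250 bases before the start lie within annotated ID3 exon sequence, the match was CTTTGAA, starting 179 bases before the start (chr1:23559664-23559690, minus strand):
ID3: cttcctcattCTTTGAAtccgcggctc
In the LEF1 window, likewise within annotated LEF1 exon sequence before the start, the match was TGGGAA, starting 197 bases before the start (chr4:108166483-108166508, minus strand):
LEF1: gttccacaacTGGGAAaccctctgga
IKZF1 held CAGCTG and TGGGAA in 1 of its windows, SATB1 held CAGCTG in 1 of its windows, and the IKZF2 windows held none of the motifs. These matches are letters in a window and not measured binding sites.

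The libraries held 24615359 to 37804516 counts, so that 3 counts stood for 0.0785 to 0.125 CPM (counts scaled to library size by TMM). All 11 T-cell markers examined, among them CD3D, CD3E and LCK, were above 1 CPM in at least 1 library, and their summed level was 1474 to 1545 CPM with FB23-2 and 1915 to 1955 CPM in Control. Of 8 B-cell, 10 natural killer, 10 myeloid and 8 erythroid markers, 4, 8, 6 and 7 stayed under 1 CPM in all libraries. The summed B-cell level was 44.8 to 50.4 CPM over the 4 libraries, most of it from CD79A, and the myeloid sums were 11.3 to 13.2 and 12.5 to 13.5 CPM. Natural killer markers summed to 7.20 to 7.35 CPM with FB23-2 and 4.36 to 4.85 in Control, with KLRF1 at 0. Erythroid markers summed to 19.6 CPM in both FB23-2 libraries and 10.6 to 10.9 in Control, nearly all from EPOR. EPOR rose. GATA1 was also called, at 13 and 10 counts with FB23-2 (0.340 and 0.288 CPM) and 0 in both Control libraries. It entered the test through its FB23-2 counts alone, and its log2 fold change of 6.39 ± 1.73 is imprecise. No marker of the B-cell, natural killer and myeloid lists passed. The part of these differences in the results was not tested. In bulk RNA, fewer cells of a type and less RNA per cell cannot be told apart.

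With FB23-2, 5 of the 10 factors rose (LEF1, IKZF3, TOX, TOX2 and ID3), 4 fell (TCF7, BCL11B, SATB1 and IKZF1) and IKZF2 did not pass the test. The test was edgeR's quasi-likelihood test over 18817 genes with a Benjamini-Hochberg adjusted p below 0.05. All 10 factors were among the genes tested. In the same fit 21.8% of all tested genes rose and 20.3% fell, 42.1% together. The median absolute log2 fold change was 0.60 for the factors and 0.34 for all tested genes. Each log2 fold change is given as FB23-2 minus Control, ± its standard error (SE). Levels given as mean ± SD are over the 2 libraries of a group.

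**Figure D1:**
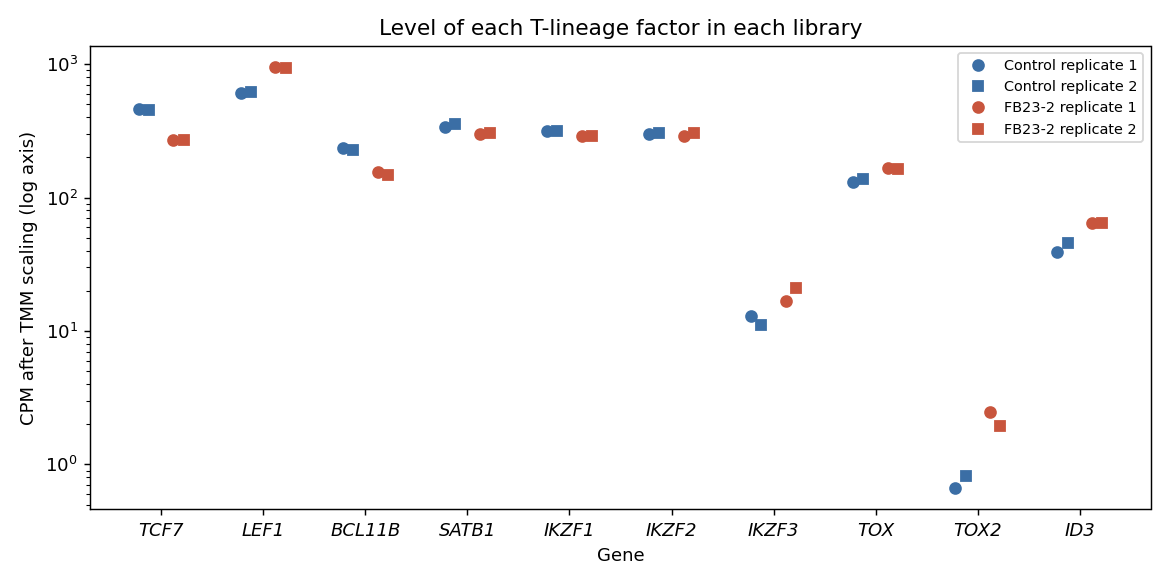
Level of each of the 10 factors in CPM on a log axis, with 1 point per library (circles replicate 1, squares replicate 2, blue Control, red FB23-2). The groups are apart for every gene but IKZF2, and TOX2 is the lowest, at 0.664 to 2.49 CPM.

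TCF7 and LEF1, which bind the same DNA motif, moved in opposite directions. TCF7 (ENSG00000081059, chromosome 5, 134114711 to 134151865 of hg38, plus strand) stood at 459 and 452 CPM in the Control libraries and at 268 and 272 CPM with FB23-2. The groups did not overlap, and the replicates of a group lay close together. The level fell from 455 ± 4.51 to 270 ± 2.46 CPM (SD, n = 2), 1.69-fold lower, for a log2 fold change of -0.75 ± 0.04 (edgeR adjusted p = 1.06e-06). Of all tested genes, 10.9% had a lower log2 fold change. TCF7 was the one factor that also passed edgeR's test against a change of 1.5-fold (edgeR adjusted p = 0.00391), which 5.91% of all tested genes passed.

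LEF1 (ENSG00000138795, chromosome 4, 108047545 to 108168956, minus strand) stood at 606 and 617 CPM in Control and at 950 and 937 CPM with FB23-2. Both FB23-2 libraries were above both Control libraries. The level rose from 611 ± 7.61 to 944 ± 9.50 CPM, 1.54-fold, for a log2 fold change of 0.63 ± 0.03 (edgeR adjusted p = 1.84e-06). A higher log2 fold change was found for 11.5% of tested genes. LEF1-AS1, a transcript on the opposite strand that shares 279 bases (5.20%) of the LEF1 exons, was also higher, at 16.7 ± 1.13 CPM against 9.70 ± 1.31 CPM (log2 fold change 0.81 ± 0.13, edgeR adjusted p = 9.40e-04). The strand setting of the counts is not given in the sources used here, so reads of the shared bases cannot be assigned to either strand. SKP1 shares 210 bases (2.09%) of the TCF7 exons on the opposite strand and was at 244 ± 11.3 CPM in treated and 236 ± 2.04 CPM in Control libraries.

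Per kilobase of annotated exon, LEF1 was more abundant than TCF7 in every library. The ratio of LEF1 to TCF7 on that scale was 2.48 and 2.56 in the Control libraries and 6.65 and 6.47 with FB23-2. In CPM without exon length it was 1.32 and 1.36 in Control and 3.54 and 3.45 with FB23-2. The ratio was thus 2.60-fold higher with FB23-2, and its groups did not overlap. An exact permutation test of 2 libraries against 2 cannot give a two-sided p below 0.333, and the ratio is given without a test. LEF1 made up 71.3% and 71.9% of the summed TCF7 and LEF1 level per kilobase in Control and 86.9% and 86.6% with FB23-2. The sum itself was 159 and 160 CPM per kilobase in Control and 204 and 202 with FB23-2. Both genes have several annotated starts, including shorter forms without the beta-catenin binding part, and counts per gene do not separate these forms. Exon length covers all annotated transcripts and not those used in these cells, and the ratio and shares per kilobase depend on it.

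**Figure D2:**
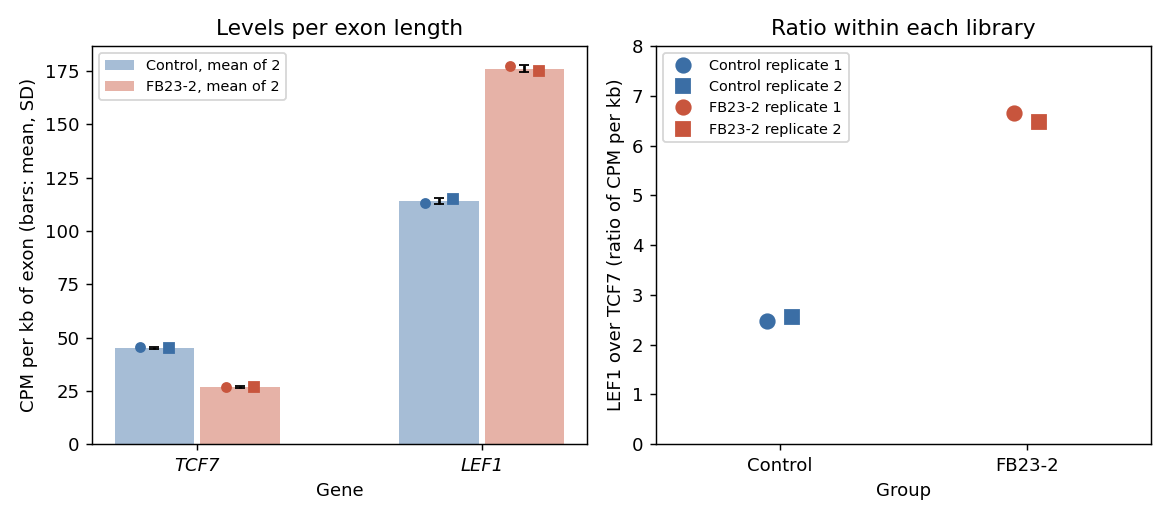
Left, TCF7 and LEF1 levels in CPM per kilobase of exon, with bars for the mean, error bars for the SD and points for the 2 libraries of each group. Right, the LEF1 to TCF7 ratio within each library, which is 2.48 and 2.56 in Control and 6.65 and 6.47 with FB23-2.

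The other TCF/LEF genes did not pass. TCF7L1 was at 0.943 ± 0.297 CPM in treated and 0.801 ± 0.0175 CPM in Control libraries (log2 fold change 0.22 ± 0.41). TCF7L2 was at 15.1 ± 0.949 and 15.7 ± 1.70 CPM (-0.07 ± 0.12). The SE of TCF7L1 was wide at that level.

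BCL11B fell as well. BCL11B (ENSG00000127152, chromosome 14, 99169287 to 99271524, minus strand) stood at 234 and 227 CPM in Control and at 154 and 147 CPM with FB23-2. Both treated libraries were below both controls. The mean went from 230 ± 4.71 to 151 ± 4.92 CPM, 1.53-fold lower, for a log2 fold change of -0.61 ± 0.04 (edgeR adjusted p = 7.69e-06). Its paralog BCL11A, a factor of B-cell and erythroid development, was at 15.6 ± 0.352 CPM in treated and 16.9 ± 0.602 CPM in Control libraries (-0.12 ± 0.10) and did not pass.

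SATB1 (ENSG00000182568, chromosome 3, 18345387 to 18445588, minus strand) fell by less. It stood at 336 and 358 CPM in Control and at 302 and 304 CPM with FB23-2. Both controls lay above the treated libraries, and the controls differed more from each other than the treated libraries did. The log2 fold change of SATB1 was -0.20 ± 0.04 (edgeR adjusted p = 0.00455). Leaving out Control replicate 2 ended the call (adjusted p = 0.0849 by edgeR, with 0.00167 to 1 across all alternatives). TBC1D5, which shares 211 bases (1.57%) of the SATB1 exons on the same strand, stood at 115 ± 0.388 and 117 ± 1.97 CPM.

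Of the Ikaros genes, IKZF1 fell, IKZF2 did not pass and IKZF3 rose, and differences between them were not tested. IKZF1 (ENSG00000185811, chromosome 7, 50304068 to 50405101, plus strand) stood at 313 and 313 CPM in Control and at 291 and 291 CPM with FB23-2. The replicates were nearly equal and the groups did not overlap, with a log2 fold change of -0.11 ± 0.04 (edgeR adjusted p = 0.0456). That call depended on the setting. It was lost under 7 of 10 alternatives other than the test against 1.5-fold, among them DESeq2 (adjusted p = 0.123) and the omission of any 1 library (edgeR adjusted p = 0.0719 to 0.205), in a range of 0.0109 to 1. IKZF2 (ENSG00000030419, chromosome 2, 212999691 to 213152427, minus strand) stood at 297 and 304 CPM in Control and at 288 and 304 CPM with FB23-2. The groups overlapped, and IKZF2 changed by -0.02 ± 0.04 on the log2 scale (edgeR adjusted p = 0.730).

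IKZF3 (ENSG00000161405, chromosome 17, 39757715 to 39864188, minus strand) was far lower than IKZF1 and IKZF2 and rose. It stood at 12.9 and 11.2 CPM in Control (312 and 384 counts) and at 16.7 and 20.8 CPM with FB23-2 (638 and 722 counts). All treated values were above the controls, although the 2 treated libraries differed by more than the gap between the groups. The log2 fold change was 0.65 ± 0.14, or 1.57-fold (edgeR adjusted p = 0.00487). Leaving out Control replicate 2 ended the call here too (adjusted p = 0.0702 by edgeR, with 0.00190 to 0.724 across all alternatives). Per kilobase, IKZF3 made up 2.38% and 2.04% of the summed level of the 3 genes in Control and 3.22% and 3.88% with FB23-2. Of the remaining family, IKZF5 did not pass (log2 fold change -0.07 ± 0.06, 47.2 ± 0.713 CPM in Control), and IKZF4, encoding Eos, had 5 to 8 counts per library and was not tested.

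TOX and TOX2 both rose, at very different levels. TOX (ENSG00000198846, chromosome 8, 58805418 to 59119208, minus strand) stood at 131 and 139 CPM in Control and at 165 and 165 CPM with FB23-2. The groups did not overlap, and the log2 fold change was 0.29 ± 0.05, or 1.22-fold (edgeR adjusted p = 8.97e-04). An antisense transcript that shares 169 bases (4.09%) of the TOX exons moved the other way, from 16.1 ± 0.814 to 12.9 ± 1.00 CPM (edgeR adjusted p = 0.0445).

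TOX2 (ENSG00000124191, chromosome 20, 43914864 to 44069616, plus strand) had 16 and 28 counts in Control and 95 and 67 with FB23-2, or 0.664 and 0.813 CPM against 2.49 and 1.93 CPM. It had the largest fold of the 10 factors and the least depth. It rose 2.95-fold, or by 1.56 ± 0.35 on the log2 scale (edgeR adjusted p = 0.00540), and 1.72% of tested genes had a higher one. Per kilobase TOX2 reached 1.90% and 1.48% of the summed TOX and TOX2 level with FB23-2, against 0.646% and 0.746% in Control. TOX4, a broadly expressed relative, rose from 99.3 ± 0.739 to 118 ± 2.87 CPM (0.25 ± 0.05, edgeR adjusted p = 0.00258). TOX3 had 0 counts in all libraries, which allows up to 0.0785 to 0.125 CPM by counting error alone.

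ID3 (ENSG00000117318, chromosome 1, 23557918 to 23559794, minus strand) rose. It stood at 38.9 and 45.3 CPM in Control and at 64.2 and 64.4 CPM with FB23-2. The treated libraries were nearly equal and the controls differed by more, with no overlap. The mean went from 42.1 ± 4.51 to 64.3 ± 0.160 CPM, 1.52-fold, for a log2 fold change of 0.60 ± 0.08 (edgeR adjusted p = 2.18e-04). ID2, which likewise blocks E proteins and is prominent in innate lymphoid cells, rose from 1.99 ± 0.760 to 6.65 ± 0.0697 CPM (1.68 ± 0.24, edgeR adjusted p = 4.38e-04). ID1 did not pass (15.9 ± 0.543 CPM in treated and 17.1 ± 0.756 CPM in Control libraries), and ID4 had 1 count in 1 Control library and 0 in the others.

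**Figure D3:**
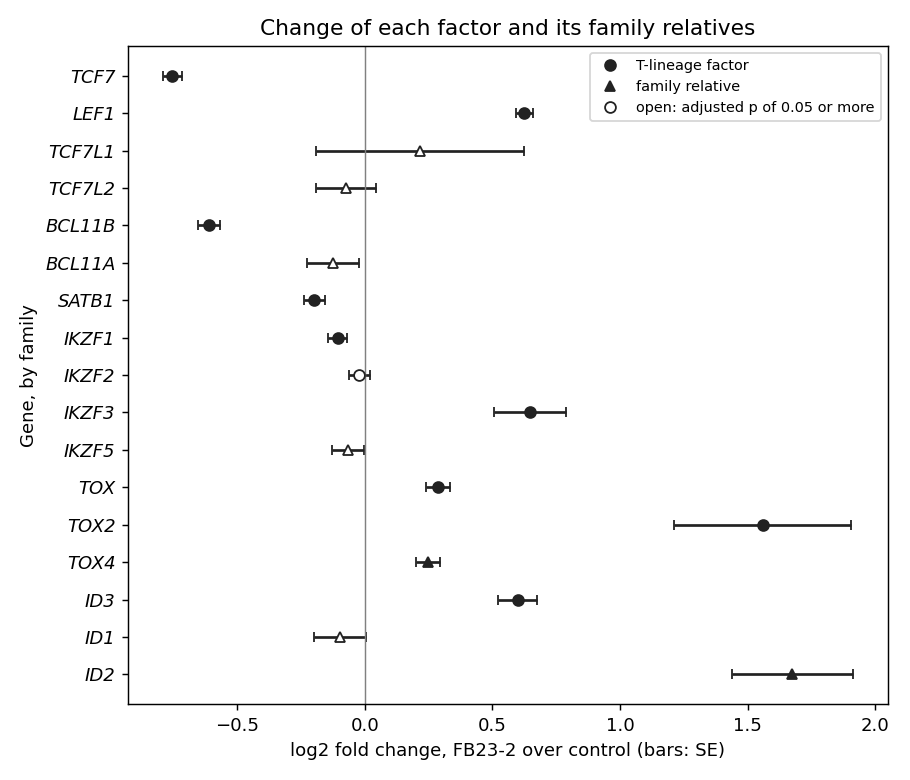
Log2 fold change (FB23-2 over Control, bars SE) of the 10 factors (circles) and 7 of their tested relatives (triangles), with open symbols for an adjusted p of 0.05 or more. Of the relatives, TOX4 at 0.25 and ID2 at 1.68 are filled, and TCF7 and LEF1 lie on opposite sides of 0.

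Per kilobase of exon the order in Control was LEF1, TCF7, TOX, BCL11B, IKZF1, SATB1, IKZF2, ID3, IKZF3 and TOX2. LEF1 led at 114 ± 1.42 CPM per kilobase, followed by TCF7 at 45.3 ± 0.448 and TOX at 32.6 ± 1.32. BCL11B (29.3 ± 0.599) and IKZF1 (28.6 ± 0.0469) were close but did not overlap. ID3, at 21.7 and 25.2 CPM per kilobase, overlapped both IKZF2 (24.3 and 24.8) and SATB1 (25.1 and 26.7). With FB23-2 the order was LEF1, TOX, ID3, TCF7, IKZF1, IKZF2, SATB1, BCL11B, IKZF3 and TOX2. TCF7 thus went from the second to the fourth place, at 26.6 and 27.0 CPM per kilobase, next to IKZF1 at 26.6 in both libraries. ID3 rose to 35.8 ± 0.0891, and BCL11B fell to 19.2 ± 0.627. Neighbours in that order did not overlap, though exon length here covers all annotated transcripts and not those used in these cells.

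Across the 10 factors, the CPM of the 2 groups did not overlap for 9, against 70.8% of all tested genes.

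Other transcription factors of T-cell development rose in 14 of 25 tested cases and fell in 4, beside 21.8% and 20.3% of all tested genes. Their median log2 fold change was 0.36, against 0.00 for all tested genes. The list held 26 genes. ZBTB7B, which encodes the CD4-lineage factor ThPOK, rose from 1.54 ± 0.123 to 5.15 ± 0.308 CPM (1.73 ± 0.23). EGR1, an immediate-early factor (0.83 ± 0.15), and RUNX3, a factor of the CD8 lineage (0.74 ± 0.09), also rose. MYB, a factor of progenitors and thymocytes, fell from 504 ± 1.28 to 319 ± 0.463 CPM (-0.66 ± 0.04). RUNX1 (-0.41 ± 0.04) and the E-protein gene TCF4 (-0.51 ± 0.09) fell as well. ETS1 fell (-0.14 ± 0.04), a call that ended when FB23-2 replicate 2 (adjusted p = 0.0714 by edgeR), Control replicate 1 (0.0542) or Control replicate 2 (0.122) was left out, and with library size scaling (0.0564).

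Beta-catenin, its partners and the co-repressors and destruction complex genes of TCF/LEF factors had 9 of 18 members higher and 0 lower, beside 21.8% and 20.3% of all tested genes. The 9 calls together are near the background share of 42.1% for either direction, and the median log2 fold change was 0.18. BCL9L, a beta-catenin coactivator, rose from 32.4 ± 0.00199 to 53.6 ± 0.335 CPM (0.73 ± 0.07). TLE4, a Groucho co-repressor (0.61 ± 0.06), and CTNNBIP1, which blocks beta-catenin from TCF/LEF proteins (0.37 ± 0.06), rose too. JUP, encoding gamma-catenin, was low, at 2.83 ± 0.0532 and 4.92 ± 0.705 CPM, and its rise was not called when FB23-2 replicate 2 (adjusted p = 0.0809 by edgeR), Control replicate 1 (0.0674) or Control replicate 2 (0.107) was left out.

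Known TCF/LEF targets of Wnt signalling had 1 higher and 2 lower of 7 tested among 11 listed, near the 42.1% of all tested genes called. AXIN2, a feedback inhibitor of the pathway, rose from 17.5 ± 1.87 to 34.3 ± 1.36 CPM (0.99 ± 0.10, edgeR adjusted p = 4.49e-05). NKD2, another feedback gene, fell from 26.2 ± 0.892 to 9.44 ± 1.00 CPM (-1.46 ± 0.11, edgeR adjusted p = 9.43e-06). ZNRF3, a ligase that removes Wnt receptors, fell (-0.93 ± 0.22), but was not called when FB23-2 replicate 2 (adjusted p = 0.0554 by edgeR) or Control replicate 2 (0.116) was left out. The called targets did not share 1 direction, and the median of those tested was 0.16.

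Subunits of NuRD and other corepressors of Ikaros, BCL11B and SATB1 had 3 of 17 members higher and 6 lower, and their median was -0.09. Of all tested genes 21.8% were higher and 20.3% lower. CHD4, the remodelling ATPase of NuRD, rose from 673 ± 11.3 to 835 ± 9.22 CPM (0.31 ± 0.03). GATAD2B (0.34 ± 0.06) and SIN3A (0.25 ± 0.05) rose, while GATAD2A (-0.47 ± 0.04), MTA1 (-0.34 ± 0.04), the deacetylase gene HDAC2 (-0.32 ± 0.04) and CTBP1 (-0.19 ± 0.04) fell. With drugs such as lenalidomide bound, the cereblon ligase degrades some of the Ikaros proteins, among them Ikaros and Aiolos. Casein kinase 2 phosphorylates Ikaros. Genes of this ligase and this kinase rose in 1 of 8 cases and fell in 3, near the 42.1% of all tested genes called. DDB1 (-0.47 ± 0.04) and CUL4A (-0.37 ± 0.05), both ligase subunits, fell. CSNK2A1 (-0.14 ± 0.04) lost its call when FB23-2 replicate 2 (adjusted p = 0.0513 by edgeR), Control replicate 1 (0.105) or Control replicate 2 (0.0583) was left out, and with library size scaling (0.0694). CSNK2B (0.59 ± 0.16) did so when FB23-2 replicate 2 (0.0777) or Control replicate 2 (0.135) was left out. CRBN itself was not called.

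T-cell genes listed as dependent on these factors or on E proteins had 14 of 24 members lower and 2 higher, with a median of -0.50. Of all tested genes 20.3% were lower and 21.8% higher. RAG2, of the V(D)J recombinase, was low, at 70 and 100 counts in Control and 19 and 21 with FB23-2. It fell from 2.90 ± 3.47e-04 to 0.551 ± 0.0764 CPM (-2.4 ± 0.32), and that Control SD is below the counting error. PTCRA, the pre-T-cell receptor alpha chain, fell from 5.31 ± 0.874 to 1.42 ± 0.0579 CPM (-1.92 ± 0.25). CD6, a surface receptor (-1.21 ± 0.07), and CD3D, a T-cell receptor subunit (-0.76 ± 0.04), fell too. CCR7, a homing receptor, rose from 3.24 ± 0.109 to 10.5 ± 0.851 CPM (1.71 ± 0.17). TRAC, the T-cell receptor alpha constant gene, rose (0.70 ± 0.08). All 11 T-cell markers above are among these 24 genes, so the lower marker sum and these calls are not independent. That dependence was not examined in these cells, and a link to the changes of the factors was not tested.

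**Figure D4:**
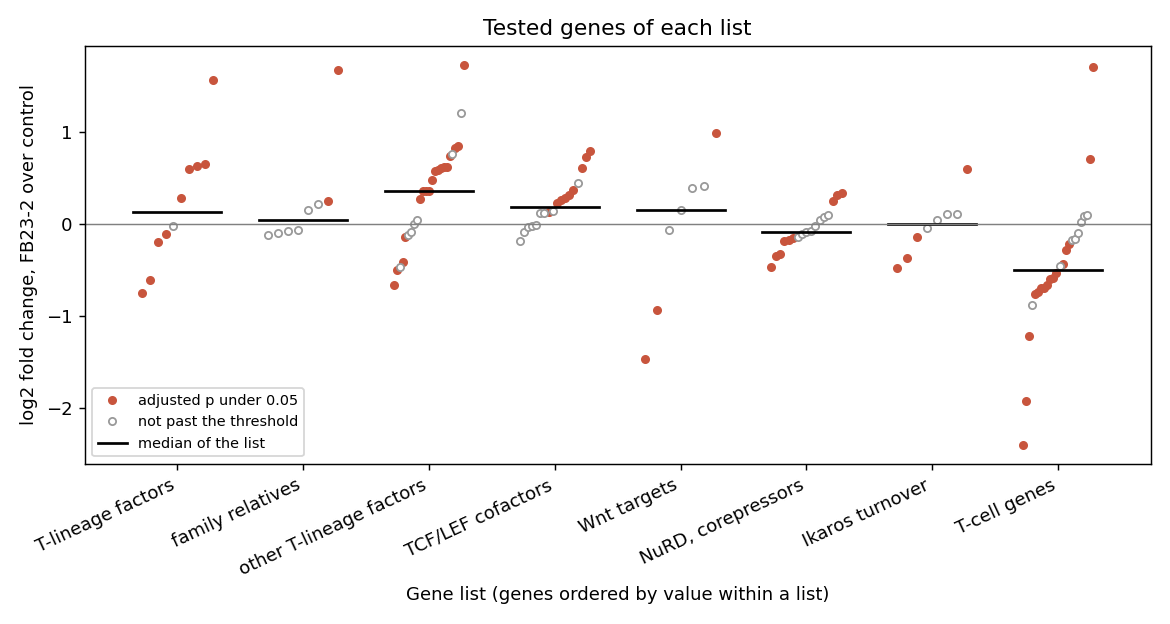
Log2 fold change of every tested gene in each list, ordered by value, with filled red points past the adjusted p of 0.05, open points not past it, and a line at the list median. The other T-lineage factors have a median of 0.36 and the T-cell genes one of -0.50.

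Under other scalings, filters, tests and with any 1 library left out, the direction held for every factor but IKZF2. The log2 fold change of TCF7 ranged from -0.80 to -0.71, that of LEF1 from 0.59 to 0.67 and that of BCL11B from -0.66 to -0.56. ID3 ranged from 0.49 to 0.73, TOX from 0.23 to 0.33 and TOX2 from 1.34 to 1.74. These 6 genes were called under all 10 alternatives besides the test against 1.5-fold.

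**Figure D5:**
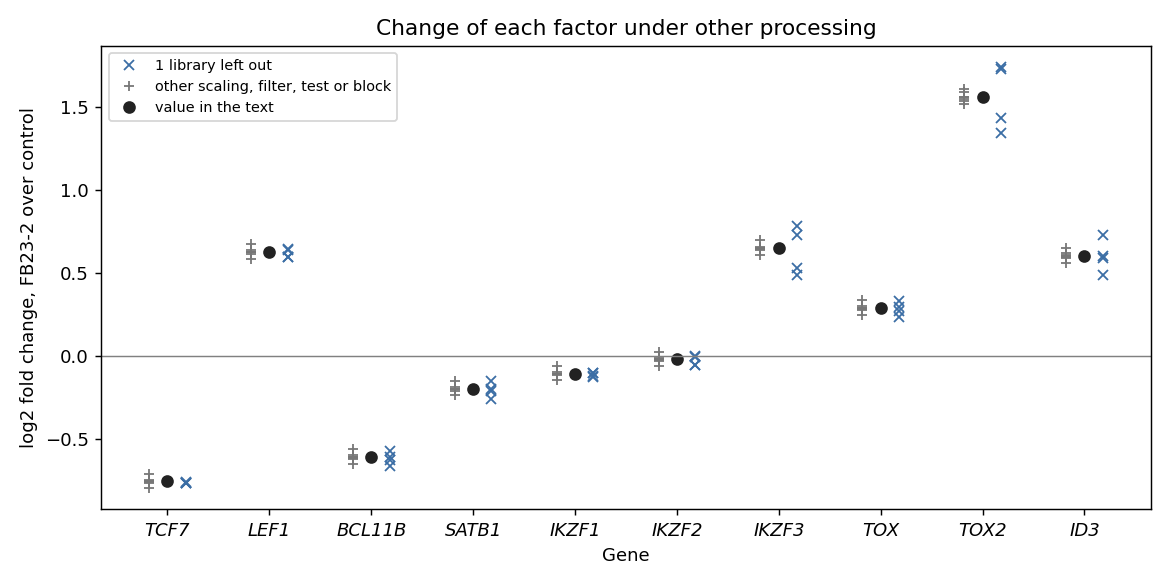
Log2 fold change of each factor as given in the text (black), with each library left out (blue crosses) and under other scaling, filter, test or block (grey plus signs). TCF7 and LEF1 keep narrow ranges, and IKZF3 and TOX2 spread the most when a library is left out.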

How the data were processed

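RNA was measured in 4 libraries, 2 with FB23-2 and 2 with DMSO, grouped by sample title. The authors deposited whole-number counts per gene with no normalization. Per the submitters' processing notes, the tools included HISAT2 2.2.0 and StringTie, on hg38. How alignments became counts, whether strand was used and which annotation served were not given in the sources used here. Names came from a list of gene symbols, and coordinates, exon lengths and exon overlaps from GENCODE release 29 on the same build.

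Genes were kept by filterByExpr (minimum count 10) of edgeR 4.0.16 in R 4.3.3, which left 18817. Libraries were scaled by TMM and compared with glmQLFit (robust) and glmQLFTest. P values were adjusted over all tested genes by the Benjamini-Hochberg method, with 0.05 as threshold, and the SE is the absolute log2 fold change over the root of F. The fit was tested on simulated data. Alternatives were DESeq2 1.42.0, other scalings, no filter, a test against 1.5-fold, each library left out and a replicate block. Counting floors (3 counts) cover counting error only. Replicates were not copies of each other (chi-square of 6.69 and 7.48 per degree of freedom within groups, 74.6 to 82.3 between them).

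The factors, lists and rules were chosen with earlier results of these data known. All 10 factors are named, with their relatives and up to 4 changed genes in each direction from each other list at 1 CPM or more. Some results under this rule are not reported here.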

Additional observations from a re-analysis of the deposited data

How the results depend on the processing

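Calls of TCF7, LEF1, BCL11B, TOX, TOX2 and ID3 held under all 10 alternatives besides the test against 1.5-fold. That test called 1112 genes in place of 7919, fewer by its construction. Under it 1 factor was lower (TCF7) and 0 were higher. With 1 library left out, 5647 to 6596 genes were called, 2 to 3 factors were lower in place of 4, and 4 to 5 were higher in place of 5. IKZF2 was at 0.027 with scaling by library size alone, a setting that put the median of all tested genes at 0.048 in place of 0.0014. TCF7L1 ranged from -0.13 (without FB23-2 replicate 2) to 0.50 and TCF7L2 from -0.18 to 0.059 (without Control replicate 2) when 1 library was left out. None of these was called, and the cause was not tested. DESeq2 called 6418 genes and edgeR without a filter 6722.

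With the replicate number as a block, 8268 genes were called, and 4 factors were lower and 5 higher, as without it. The labels tie a number to no shared culture or day. Deviations of same-numbered libraries correlated at 0.06 across genes, so the block is given as a setting only. With 2 libraries per group, changes of low genes such as TOX2 and TCF7L1 are imprecise.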
